A study of Homo sapiens with 9 samples.

Results

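The proteasome subunit genes are the protein-coding genes whose symbols run from PSMA to PSMG followed by a number. The rule found 48 of the 34961 genes in the deposited table. Another 26 rows matched the names but carried no protein-coding type and were left out. The set holds 14 subunits of the constitutive core particle, 17 of the regulatory cap, 3 inducible catalytic subunits, 4 activators, 1 inhibitor, 4 core assembly chaperones and 3 cap assembly chaperones. The remaining 2 genes, PSMC3IP and PSME3IP1, matched by name only and code for partners of subunits, not subunits. PSMB11, the thymic catalytic subunit, was not analysed here. Of the 48 genes, 47 passed the filter on low counts and were tested among 20156 genes. The exception was PSMD5, a cap assembly chaperone, with 31 counts over all 9 libraries.

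The libraries came from WA09 (H9), a human embryonic stem cell line, and every group carried a TPH2-EGFP knock-in, which places a green fluorescent protein marker at the gene for neuronal tryptophan hydroxylase. There were 3 libraries each from Day0, labelled embryonic stem cells, from Day21, labelled neural progenitor cells, and from Day42, labelled TPH2+ serotonin neurons. All 9, Day0 included, bear the same label for the induction of serotonin neurons. About 10 ng of total RNA went into each low-input library. The labels call the libraries of a day biological replicates but do not say whether they came from separate differentiations or whether the Day42 cells were sorted, so a p-value here covers only how much these libraries vary, which may be technical. One knock-in line on one background limits what the groups model, and in bulk RNA fewer cells of a type and less RNA per cell cannot be told apart.

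Total counts lay between 58526466 and 69658328 per library. The number of genes with a count was 22198 to 24359 at Day0 and 24581 to 24741 at Day21, but 16077, 17101 and 10797 at Day42, with Day42 replicate 3 the lowest. Ribosomal protein genes held 1.72 to 2.11% of counts at Day42, against 6.21 to 7.61% at Day21 and 8.33 to 9.99% at Day0, and mitochondrial genes 2.65 to 2.94%, against 7.23 to 10.6% at Day21 and 6.13 to 10.49% at Day0; their part in the proteasome genes' lower values at Day42 was not tested. The 8 pluripotency markers summed to 1119 to 1921 counts scaled to library size (CPM) at Day0, 101 to 133 at Day21 and 0.083 to 5.62 at Day42. Over the 9 serotonin neuron markers the sums were 3.90 to 8.01, 7.10 to 8.55 and 1246 to 1483 CPM on the same days, while SLC6A4, the serotonin transporter, was at or under the count floor on every day. Neural progenitor markers were highest at Day21, at 1295 to 1451 CPM against 277 to 363 at Day0. Mesenchymal markers summed to 587 to 639 CPM at Day21 and 125 to 157 CPM at Day42, against 14.2 to 23.5 CPM at Day0, and their part in the results was not tested. Counts piled up at multiples of 4, with 2.17 times as many 4s as the mean of 3s and 5s, so a gene was read as detected in a library only above 12 counts.

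The proteasome is the main protease of the cytosol and nucleus and degrades proteins marked with ubiquitin chains. Its barrel-shaped core is built of α rings, which gate the entrance, and β rings, which carry the proteolytic sites inside; the cap binds the ubiquitin chain, removes it, unfolds the substrate with a ring of ATPases and feeds it into the core. Because each subunit has a fixed place in the particle, the genes of core and cap are commonly transcribed in a coordinated way, in part through the transcription factor NFE2L1. Interferon can exchange the catalytic subunits for inducible ones, which gives the immunoproteasome.

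At Day42 the core and the inducible catalytic genes were lower than at Day0. All 14 constitutive core genes fell, with log2 fold changes between -2.74 for PSMB2 and -1.09 for PSMB7 and a median of -1.66; on the TPM scale described next, PSMA1 and PSMB7 had the opposite sign. All 3 inducible catalytic genes fell as well. All 17 cap genes lay below 0 too, with a median of -0.84, and 8 of them passed an adjusted p of 0.05 in edgeR. On the TPM scale 5 of the 17 lay below 0. Of the 4 activators 3 lay below 0, and only PSME2 passed. Counted over the 47 genes, 26 were lower and 0 higher at an adjusted p under 0.05 in edgeR's quasi-likelihood test, with p-values adjusted by Benjamini-Hochberg over all genes tested. Across all genes 23.7% were lower and 9.01% higher. The median proteasome gene changed by -1.24 and the median of all genes by -0.57, and 36 of the 47 lay below the median gene. This gap of -0.67 rested partly on single libraries: it was -0.31 without Day42 replicate 1 and -0.029 without Day42 replicate 2. Without Day42 replicate 2 the median of all genes was -1.12, with the core at -1.44 below it and the cap at -0.90 above it; without Day42 replicate 1 the order was the same, with all genes at -0.99, the core at -1.62 and the cap at -0.80. In 34 of the 47 every Day42 library was below every Day0 library, where this held for 34.1% of all genes.

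The direction of some genes depended on the scale. These fold changes rest on CPM rescaled by the trimmed mean of M-values (TMM), a method that takes the bulk of genes as unchanged. On TPM, a length-scaled share of all transcripts, computed from the deposited FPKM, the median change was 0.38 over the 10619 genes kept. The -0.57 above was over 20156 genes, so the 2 medians differ in genes and fit as well as in scale. On log2(FPKM + 1), the same 10619 genes had a median of 0.045. On library totals without TMM, the 20156 genes had a median of 0.009. With limma on log2(TPM + 1), 5 core genes were lower and 0 higher, while 0 cap genes were lower and 7 higher; over the 47 genes 11 were higher and 8 lower, where 30.5% of all genes in that fit were higher and 17.3% lower. On library totals without TMM, edgeR gave 2 higher and 18 lower, where 13.0% of all genes were higher and 19.7% lower. Against the median gene of each scale the core was lower on both. The difference between the core and cap medians was -0.81 in the TMM-scaled fit and lay between -1.05 and -0.54 over 19 other settings.

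**Figure D1:**
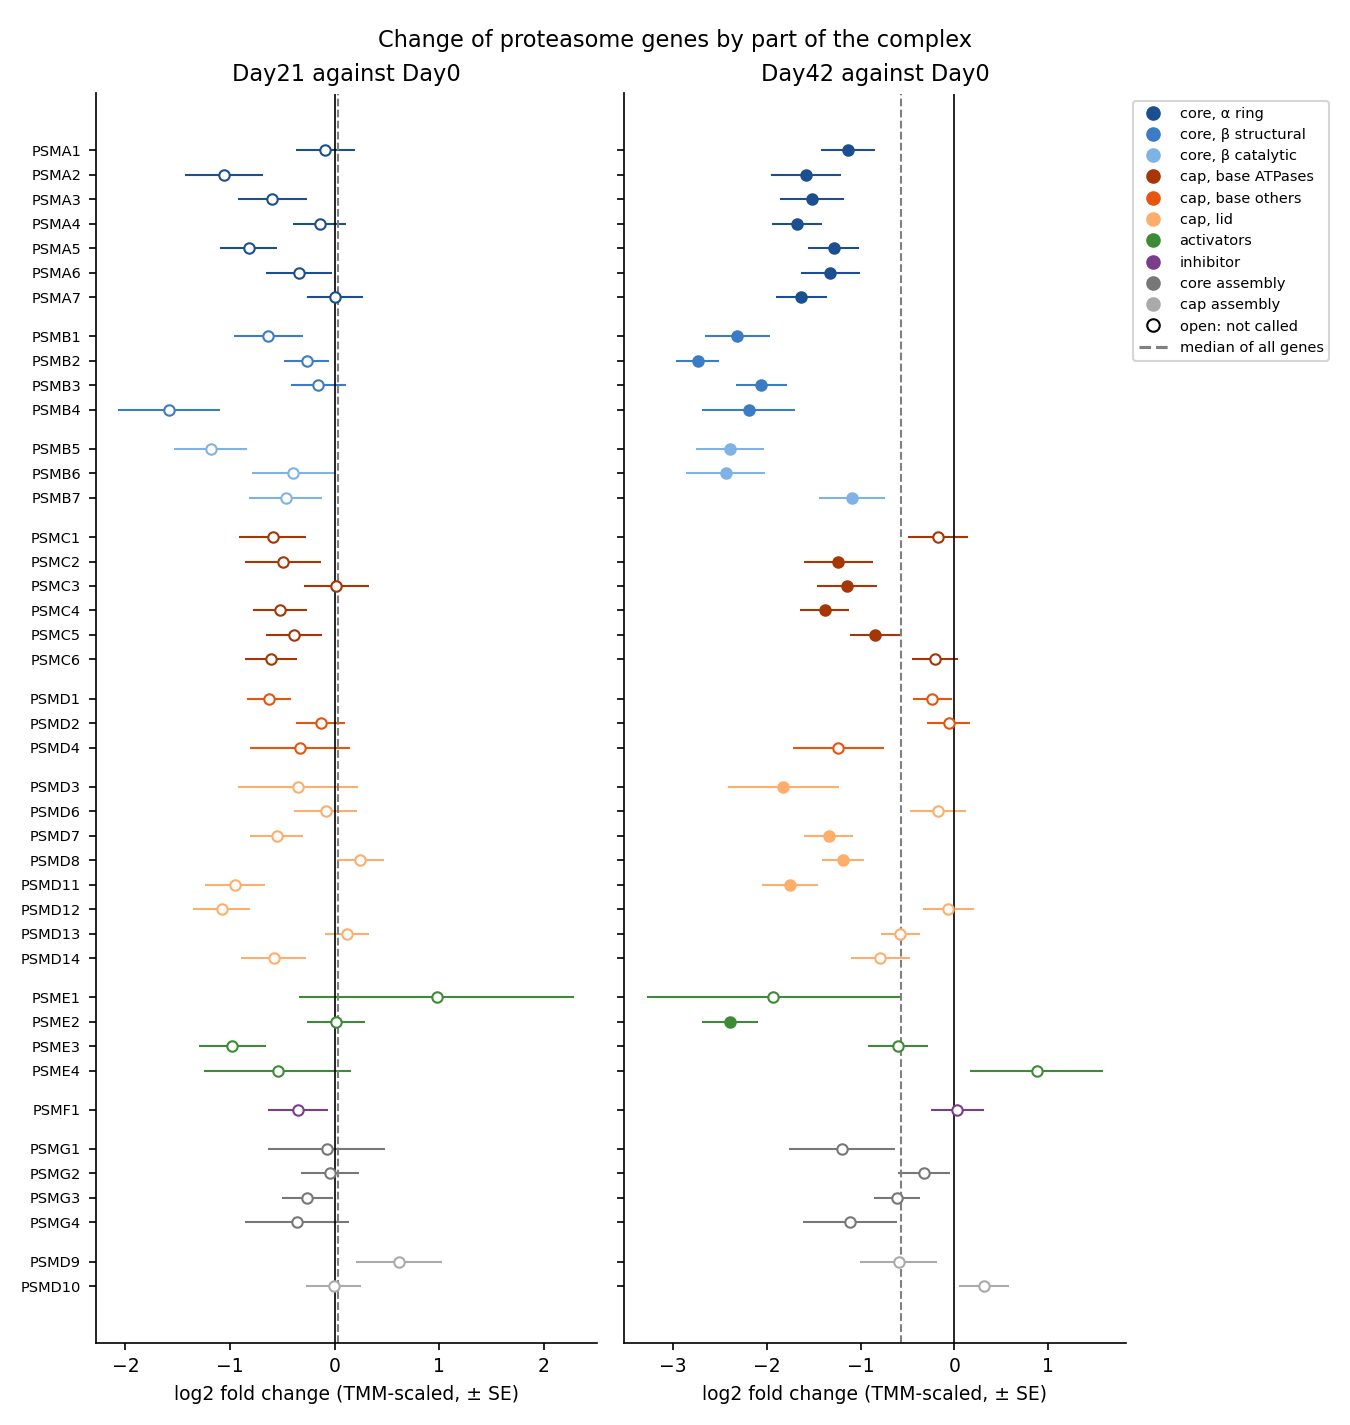
Log2 fold change (x axis, TMM-scaled, ± SE) of 42 proteasome genes, grouped by part of the complex, for Day21 against Day0 (left) and Day42 against Day0 (right); filled points passed an adjusted p of 0.05 in edgeR, and the dashed line is the median of all genes tested. All 14 core genes lie left of the dashed line at Day42, though PSMA1 and PSMB7 turn sign on the TPM scale, whereas the cap genes are spread on both sides of it; on the TPM scale 7 cap genes were called higher.

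Core and cap were also compared within each library, where no scaling between libraries enters. Summed core TPM was 12658, 16824 and 9664 at Day0, 7820.1, 10115 and 10891 at Day21, and 8045, 7266 and 7880 at Day42. Summed cap TPM was 3314, 4737 and 2903 at Day0, 2817, 2984 and 3635 at Day21, and 4789, 4217 and 3978 at Day42. The ratio of core to cap was 3.82, 3.55 and 3.33 at Day0, 2.78, 3.39 and 3.00 at Day21, and 1.68, 1.72 and 1.98 at Day42. It averaged 1.79 ± 0.163 at Day42, against 3.05 ± 0.311 at Day21 and 3.57 ± 0.246 at Day0 (SD, n = 3 each). Every Day42 library lay below every library of the earlier days, while Day21 and Day0 overlapped.

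**Figure D2:**
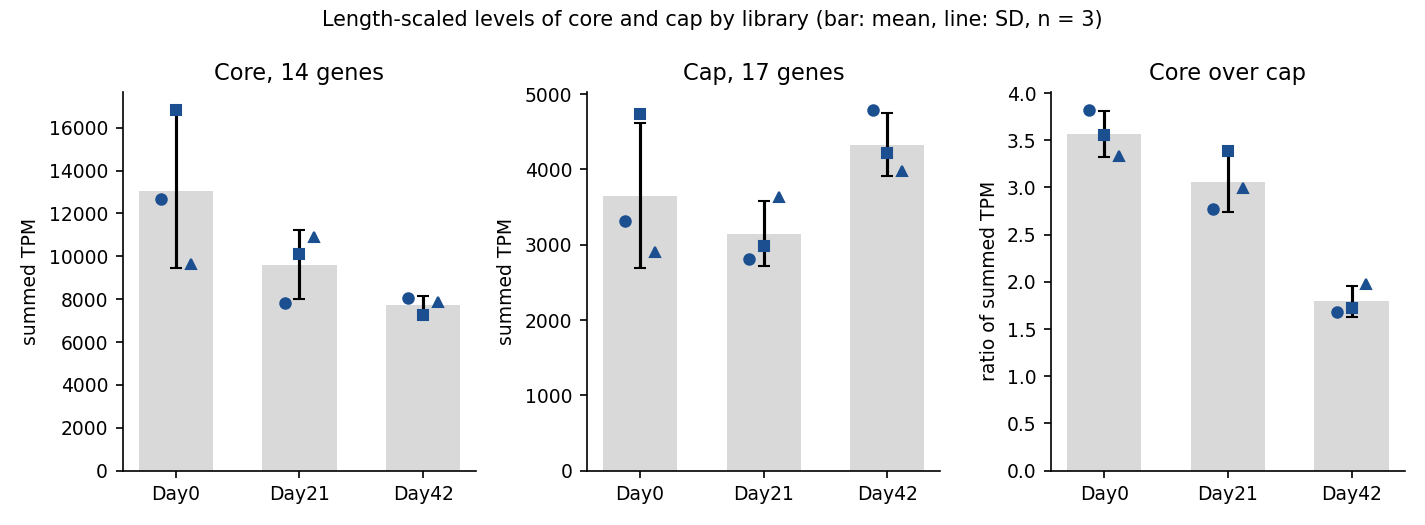
Summed TPM of the 14 core genes (left) and of the 17 cap genes (middle), and their ratio (right), by day; bars are means, vertical lines SDs over 3 libraries, and circle, square and triangle are replicates 1, 2 and 3. The ratio stands between 1.68 and 1.98 at Day42 and between 2.78 and 3.82 on the earlier days.

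Transcript length moved with this difference. Core transcripts had a median length of 1012.5 bases and cap transcripts of 1954 bases. Over all genes the median change from Day0 at Day42 was -2.05 for transcripts under 800 bases, -1.29 from 800 to 1600, -0.69 from 1600 to 2400, -0.20 from 2400 to 4000 and 0.29 for longer ones. Day21 against Day0 showed no such gradient, with medians between -0.04 and 0.09 in the same classes. Among genes with a mean of at least 50 CPM, 54.2% of those with transcripts under 1600 bases were called lower at Day42 than at Day0, against 21% of the longer ones; 42 of the 47 proteasome genes tested reached that mean. Once the length trend over all genes was taken off, the median core change was -0.45, with 9 of 14 genes below the trend, and the median cap change was -0.07, with 10 of 17 below. With length and expression level both taken off, these medians were -0.63 and -0.21. What length contributed to the core's lower values was not tested.

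**Figure D3:**
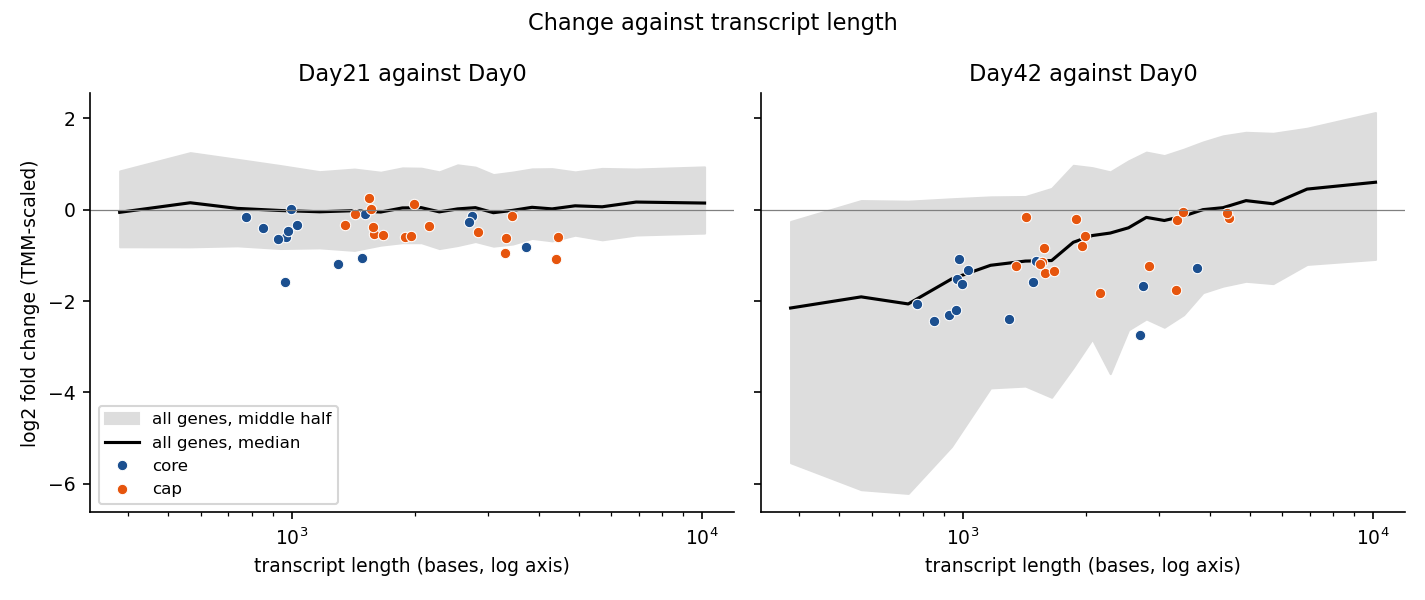
Log2 fold change (y axis, TMM-scaled) against transcript length (x axis, bases, log scale) for Day21 against Day0 (left) and Day42 against Day0 (right); the line is the median of all genes in 20 length classes, the grey band their middle part from the 25th to the 75th percentile, and points are core and cap genes. At Day42 the line climbs with length and most core points lie in its short, low part, with PSMB2 (2701 bases, -2.74) far below it; the cap's direction depends on the scale.

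The catalytic subunits held the largest single changes. PSMB5, PSMB6 and PSMB7 are the constitutive subunits with chymotrypsin-like, caspase-like and trypsin-like activity, and PSMB8, PSMB9 and PSMB10 are the inducible ones that take their places. PSMB8 had 37.5, 33.1 and 30.6 CPM at Day0, 1.71, 1.53 and 2.57 CPM at Day21, and 0, 0.0472 and 0.0712 CPM at Day42. PSMB9 had 29.7, 29.2 and 13.8 CPM at Day0, 1.04, 1.66 and 5.13 CPM at Day21, and 0, 0 and 0.0475 CPM at Day42. The counts behind them were 1673, 1825 and 1875 for PSMB8 at Day0, 118, 84 and 142 at Day21, and 0, 4 and 6 at Day42. For PSMB9 they were 1328, 1607 and 843 at Day0, 72, 91 and 284 at Day21, and 0, 0 and 4 at Day42. Each day stood apart from the others for both genes, and all Day42 libraries were under the floor of 12 counts. Set against that floor, averaged over the Day42 libraries, PSMB8 was at least 231-fold lower at Day42 than at Day0 and PSMB9 at least 166-fold lower, with adjusted p = 0.00134 and 0.00314 in edgeR. Both were also called lower at Day42 than at Day21, by at least 13.3-fold and 17.9-fold. At Day21 the log2 fold change from Day0 was -4.12 ± 1.00 for PSMB8 and -3.21 ± 1.27 for PSMB9 (SE), and neither passed, at adjusted p = 0.0555 and 0.239 in edgeR; over 19 other settings PSMB8 passed in 8 and PSMB9 in 7.

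PSMB10 had 209.7, 162 and 85.8 CPM at Day0, 48.3, 106 and 117 CPM at Day21, and 30.5, 27.5 and 46.7 CPM at Day42. PSMB10 was the exception among the inducible genes in staying well above the floor on every day. It fell at Day42 against Day0 by 2.13 (log2; SE 0.47; edgeR adjusted p = 0.00949). In TPM PSMB10 had 179.7, 173 and 97.4 at Day0 and 71.5, 72.2 and 101.6 at Day42, so the days overlapped on that scale. PSMB8 and PSMB9 lie side by side on chromosome 6 in the major histocompatibility region, on opposite strands and overlapping, and PSMB9 also overlaps TAP1, which codes for a peptide transporter; no source used here says whether strand was used in counting, so reads of the 3 genes cannot be told apart where they overlap. TAP1 was lower at Day42 than at Day0 too, with a log2 fold change of -7.58 ± 1.97 (SE, edgeR adjusted p = 0.0189) and with 0, 0 and 0.178 CPM at Day42 against 9.63, 5.92 and 19.6 CPM at Day0.

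PSMB5 had 2551, 2396 and 1511 CPM at Day0, 594, 1319 and 927 CPM at Day21, and 336, 345 and 549 CPM at Day42. PSMB6 had 2476, 2722 and 1010.0 CPM at Day0, 944, 1780.0 and 1999 CPM at Day21, and 457, 344 and 345 CPM at Day42. PSMB7 had 1067, 1236 and 587 CPM at Day0, 441, 741 and 907 CPM at Day21, and 549, 448 and 363 CPM at Day42. Every Day42 library was below every Day0 library for these 3 genes, which fell by 2.39, 2.44 and 1.09 on the log2 scale (edgeR adjusted p = 0.00212, 0.00331 and 0.0443). PSMB7 was the weakest of these calls and was kept in 4 of 19 other settings, with the opposite sign on the TPM scale. The mean share of the inducible subunit in a pair's TPM was lowest at Day42. PSMB8 made up 0.00383% ± 0.00332 of PSMB8 plus PSMB5 at Day42, against 0.0986% ± 0.0423 at Day21 and 0.717% ± 0.153 at Day0 (SD, n = 3 each). For PSMB10 with PSMB7 the share was 8.16% ± 3.69 at Day42, against 12.3% ± 1.43 at Day21 and 14.7% ± 2.69 at Day0. The PSMB10 shares of Day42 replicate 3 (12.4%) and of Day0 replicate 2 (12.6%) nearly met, and Day42 overlapped with Day21, whose lowest share was 10.8%.

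**Figure D4:**
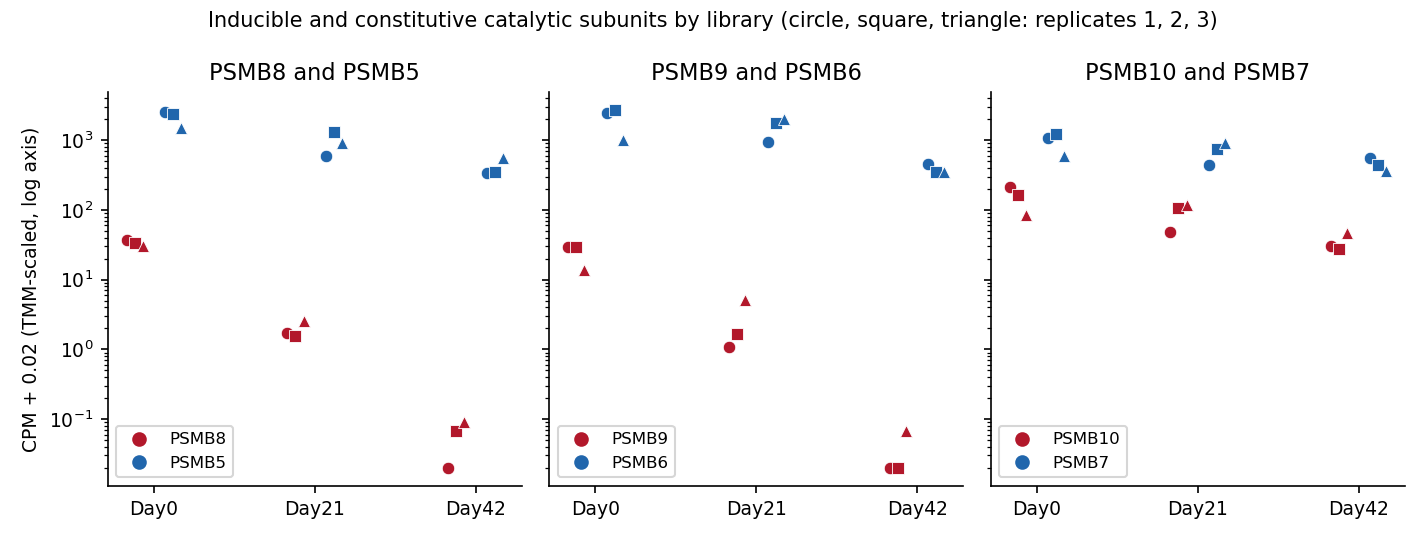
TMM-scaled CPM, drawn as CPM + 0.02 on a log axis, of the 3 inducible catalytic subunits (red) and the constitutive subunits they replace (blue) in each library; circle, square and triangle are replicates 1, 2 and 3. PSMB8 and PSMB9 drop to the bottom of the axis at Day42, where the highest value is 0.0712 CPM, while PSMB10 stays between 27.5 and 46.7 CPM.

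PSMB8 takes the place of PSMB5 in the particle, while PSMB9 and PSMB10 take those of PSMB6 and PSMB7. The 250 bases before the start of PSMB8, PSMB9 and PSMB10 are shown with those of PSMB5, because these catalytic genes differed in change. They come from RefSeq on GRCh38.p14, read on the gene's strand, at chr14:23035221-23035470 (minus strand) for PSMB5, chr6:32844680-32844929 (minus) for PSMB8, which is the first of its listed entries, chr6:32853942-32854191 (plus) for PSMB9 and chr16:67936851-67937100 (minus) for PSMB10. Capitals mark 3 motifs searched on both strands: TGACNNNGC, the core of the antioxidant response element, CCAAT, the box bound by NF-Y, and the interferon-stimulated element, read as GAAA, any 2 bases and GAAA.
PSMB5: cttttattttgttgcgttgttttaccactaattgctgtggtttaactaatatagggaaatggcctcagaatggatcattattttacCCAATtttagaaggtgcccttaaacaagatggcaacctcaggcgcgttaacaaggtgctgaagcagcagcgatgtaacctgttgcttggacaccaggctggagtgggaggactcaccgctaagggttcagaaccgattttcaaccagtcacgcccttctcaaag
PSMB8: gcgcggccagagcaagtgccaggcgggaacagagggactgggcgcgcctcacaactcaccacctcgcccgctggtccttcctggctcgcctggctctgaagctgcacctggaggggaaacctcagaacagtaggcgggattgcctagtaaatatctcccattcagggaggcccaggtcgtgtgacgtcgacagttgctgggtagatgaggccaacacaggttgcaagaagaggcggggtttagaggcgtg
PSMB9: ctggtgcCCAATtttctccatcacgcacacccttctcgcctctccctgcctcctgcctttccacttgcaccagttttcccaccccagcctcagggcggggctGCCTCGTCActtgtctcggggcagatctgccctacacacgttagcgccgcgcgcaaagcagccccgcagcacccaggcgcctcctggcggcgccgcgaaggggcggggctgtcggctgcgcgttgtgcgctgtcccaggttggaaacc
PSMB10: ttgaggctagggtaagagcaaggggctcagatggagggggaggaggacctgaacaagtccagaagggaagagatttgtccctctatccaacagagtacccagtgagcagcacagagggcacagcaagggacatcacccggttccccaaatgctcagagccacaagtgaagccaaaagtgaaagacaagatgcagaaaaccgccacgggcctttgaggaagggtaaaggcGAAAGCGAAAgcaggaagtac
PSMB5 holds a CCAAT box, PSMB9 a CCAAT box and a reverse-strand antioxidant core that do not overlap, PSMB10 an interferon-type element close to the start, and PSMB8 none of these letters. Of the 48 genes 42 had an entry, and each was counted once, by its first listed entry. All 35116 entries beside them were counted, also where a gene had several, so the 2 shares are not of like units. The antioxidant core was found in 26.2% of these promoters, against 10.9% of all 35116 entries, the CCAAT box in 45.2% against 32.0%, and the interferon-type element in 11.9% against 3.0%. PSMA4, PSMB4, PSMB10, PSME2 and PSMG4 held the interferon-type element. A match is a description of the letters and was not tied to any change.

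The 4 structural β subunits fell at Day42 against Day0 with a median of -2.25. PSMB2 had 693, 744 and 519 CPM at Day0, 454, 584 and 587 CPM at Day21, and 91.2, 87.7 and 115 CPM at Day42. PSMB1 had 2695, 3075 and 1392 CPM at Day0, 1028, 1723 and 1860.5 CPM at Day21, and 554, 397 and 491 CPM at Day42. PSMB3 had 1412, 1436 and 857 CPM at Day0, 785, 1313 and 1226 CPM at Day21, and 279, 293 and 319 CPM at Day42. In PSMB2, PSMB1 and PSMB3 all Day42 libraries were below all libraries of the earlier days in CPM. The same held in TPM, except that PSMB1 at Day42 overlapped with Day21. PSMB4 had 1209, 1832 and 494 CPM at Day0, 216, 416 and 550.1 CPM at Day21, and 295, 227 and 251 CPM at Day42. PSMB4 was already lower in 2 Day21 libraries than in any Day0 library, but Day0 replicate 3 was low as well and the difference at Day21 did not pass (edgeR adjusted p = 0.124). PSMB2 changed by -2.74 ± 0.23 (SE; edgeR adjusted p = 0.000177) at Day42 against Day0 and was called in all 19 other settings. It is one of the longer core transcripts, at 2701 bases, and lay 2.35 below the length trend on the log2 scale.

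Within the α ring the changes at Day42 against Day0 lay between -1.68 for PSMA4 and -1.13 for PSMA1, and all 7 genes passed. PSMA4 had 969, 1188 and 629 CPM at Day0, 707, 809 and 1005 CPM at Day21, and 298, 253 and 320.1 CPM at Day42. PSMA7 had 2185, 1911 and 1863 CPM at Day0, 1555, 2302 and 2114 CPM at Day21, and 658, 414 and 848 CPM at Day42. By mean TPM, which accounts for length, PSMA7 led the α ring at Day42 (1386) and at Day0 (1864). PSMA2 had 1040.1, 1337 and 623 CPM at Day0, 342, 499 and 602 CPM at Day21, and 372, 209 and 421 CPM at Day42. PSMA2 had the lowest Day21 values of the ring relative to Day0, although the difference did not pass (edgeR adjusted p = 0.178). PSMA3 had 394, 390.4 and 253 CPM at Day0, 181, 236 and 271 CPM at Day21, and 92.4, 91.4 and 178 CPM at Day42. PSMA5 had 346, 315 and 225 CPM at Day0, 117, 187 and 197 CPM at Day21, and 128, 108 and 127 CPM at Day42. PSMA6 had 689.7, 689 and 308 CPM at Day0, 366, 433 and 530.1 CPM at Day21, and 246, 208 and 220.2 CPM at Day42. In each of these 3 genes the Day42 libraries lay below the Day0 libraries in CPM, while the days overlapped in TPM. Mean TPM at Day0 and Day42 was 182 and 147 for PSMA3, 84.0 and 81.5 for PSMA5, and 140 and 134 for PSMA6. PSMA1 had 330.3, 426 and 258 CPM at Day0, 286, 314 and 351 CPM at Day21, and 120.2, 130.0 and 213 CPM at Day42. PSMA1 had the smallest change, and its sign turned on the TPM scale, where it was 0.08. After the length trend was taken off, 3 of the 7 α genes were below it and the median was 0.02.

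In the base of the cap, the ATPases PSMC1 to PSMC6 form the unfolding ring. All 6 lay below 0 at Day42 against Day0 on the TMM scale, and 4 passed. PSMC4 had 519.6, 373 and 347 CPM at Day0, 226, 295 and 339 CPM at Day21, and 166, 186 and 124 CPM at Day42. PSMC3 had 1189, 1176 and 666 CPM at Day0, 681, 1114 and 1267 CPM at Day21, and 516, 353 and 503 CPM at Day42. PSMC2 had 470.4, 739 and 352 CPM at Day0, 291, 393 and 425 CPM at Day21, and 272, 260.5 and 130.0 CPM at Day42. All Day42 libraries of PSMC4, PSMC3 and PSMC2 were below the Day0 libraries in CPM, while the days overlapped in TPM. PSMC4 changed the most, by -1.38 ± 0.26 (SE, edgeR adjusted p = 0.00487). PSMC5 also passed, at -0.84, but PSMC3 and PSMC5 had the opposite sign on the TPM scale, at 0.12 and 0.41. PSMC1 had 558, 911 and 432 CPM at Day0, 373, 431 and 459 CPM at Day21, and 425, 498 and 760.2 CPM at Day42. PSMC6 had 107, 169 and 139 CPM at Day0, 93.1, 96.6 and 82.7 CPM at Day21, and 138, 110.1 and 111 CPM at Day42. Day42 and Day0 overlapped in CPM for PSMC1 and for PSMC6. In TPM every Day42 library of both genes was above every Day0 library. PSMC1 had 127, 258 and 130 TPM at Day0 and 265, 347 and 439 TPM at Day42. PSMC6 had 19.9, 39.1 and 34.4 TPM at Day0 and 70.3, 62.8 and 52.4 TPM at Day42.

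The non-ATPase base genes showed no call in edgeR on TMM-scaled counts. PSMD1 and PSMD2 code for the large scaffold proteins that dock ubiquitin receptors and shuttles, and PSMD4 for a ubiquitin receptor. PSMD2 had 274, 424 and 386 CPM at Day0, 377, 323 and 287 CPM at Day21, and 394, 287 and 358 CPM at Day42. PSMD1 had 299.9, 389 and 310.2 CPM at Day0, 208, 195 and 245 CPM at Day21, and 318, 229 and 303 CPM at Day42. PSMD4 had 1223, 1508 and 484 CPM at Day0, 482, 919.9 and 1157 CPM at Day21, and 631, 312 and 424 CPM at Day42. PSMD2 was nearly level on the TMM scale, at -0.06 ± 0.23 (SE) for Day42 against Day0. In TPM every Day42 library of PSMD2 and PSMD1 was above every Day0 library. PSMD2 had 77.0, 148 and 144 TPM at Day0 and 304, 247 and 256 TPM at Day42. PSMD1 had 80.6, 130 and 110 TPM at Day0 and 234, 189 and 207 TPM at Day42. PSMD4 had the largest change of the 3, at -1.24 ± 0.48, and did not pass (edgeR adjusted p = 0.0859), and Day0 replicate 3 lay among the Day42 values.

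The lid is the part of the cap that removes ubiquitin chains through PSMD14, a deubiquitinase, held by scaffold subunits. All of its 8 genes here lay below 0 at Day42 against Day0 on the TMM scale, and PSMD3, PSMD7, PSMD8 and PSMD11 passed. PSMD11 had 925, 1024 and 520.2 CPM at Day0, 396, 416 and 464 CPM at Day21, and 264, 180.3 and 289 CPM at Day42. PSMD8 had 788, 739.9 and 553 CPM at Day0, 629, 905 and 934 CPM at Day21, and 339, 266 and 310.5 CPM at Day42. PSMD7 had 631, 786 and 452 CPM at Day0, 366, 389.9 and 517 CPM at Day21, and 288, 241 and 209.8 CPM at Day42. In CPM their Day42 libraries were all below their Day0 libraries, with changes of -1.75, -1.18 and -1.34. In TPM the days overlapped for each of these genes, and PSMD8 turned to 0.06. PSMD3 had 41.1, 32.5 and 129 CPM at Day0, 81.8, 42.9 and 34.5 CPM at Day21, and 19.2, 20.5 and 17.7 CPM at Day42. The call of PSMD3 (edgeR adjusted p = 0.0457) was lost in 16 of 19 other settings, and Day0 replicate 3 alone held the high value. PSMD14 had 404, 698 and 333 CPM at Day0, 284, 327 and 346 CPM at Day21, and 295, 334 and 203 CPM at Day42. PSMD14 did not pass, at -0.79 ± 0.31 (SE; edgeR adjusted p = 0.0894).

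PSMD12, a scaffold subunit of the lid, was the one proteasome gene that edgeR on TMM-scaled counts called higher in any of the 3 comparisons; other scales and weights called more, as given with each comparison. PSMD12 had 205, 326 and 163 CPM at Day0, 111, 115 and 103 CPM at Day21, and 206, 226 and 232 CPM at Day42. The 3 Day21 libraries lay below all others, and Day42 and Day0 overlapped in CPM. In TPM PSMD12 had 148, 181 and 154 at Day42, above 53.5, 106 and 56.4 at Day0. It was higher at Day42 than at Day21 by 1.02 ± 0.27 (log2, SE; edgeR adjusted p = 0.0252) and kept that call in 13 of 19 other settings. Its promoter is shown because of this call, on the minus strand at chr17:67366578-67366827 (RefSeq, GRCh38.p14), with the antioxidant core in capitals.
PSMD12: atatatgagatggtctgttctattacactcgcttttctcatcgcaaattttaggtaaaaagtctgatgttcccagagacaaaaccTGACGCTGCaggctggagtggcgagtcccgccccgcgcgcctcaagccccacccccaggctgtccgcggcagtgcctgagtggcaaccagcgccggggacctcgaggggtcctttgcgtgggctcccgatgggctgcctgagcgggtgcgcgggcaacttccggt

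Day42 against Day21 gave 15 lower genes and 1 higher among the 47 tested, where 20% of all genes were lower and 6.65% higher. In 26 of the 47 every Day42 library was below every Day21 library, where this held for 34.7% of all genes. On log2(TPM + 1), limma gave 14 higher and 5 lower, where 29.3% of all genes were higher and 14.2% lower. The lower ones were 8 core genes, namely PSMA1, PSMA4, PSMA7, PSMB1, PSMB2, PSMB3, PSMB5 and PSMB6, the inducible PSMB8 and PSMB9, the cap genes PSMC3, PSMC4, PSMD8 and PSMD13, and the activator PSME2. Core changes had a median of -1.12 and cap changes of -0.69, beside -0.54 for all genes. That order did not hold without Day42 replicate 2, where the core was at -0.94, the cap at -0.56 and all genes at -1.07, and without Day42 replicate 1 the cap, at -0.71, was above all genes, at -0.94. PSMD13 had 154, 155 and 183 CPM at Day0, 151, 183 and 199 CPM at Day21, and 122, 104 and 104 CPM at Day42. PSMD13, a lid scaffold, was lower in every Day42 library than in any Day21 library, by -0.69 ± 0.21 on the log2 scale (SE; edgeR adjusted p = 0.0411), but on the TPM scale its change was 0.47.

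Day21 against Day0 gave 0 calls among the 47 genes in edgeR, with 2.54% of all genes called in either direction. At an unadjusted p under 0.05 there were 11, beside 16.9% of all genes, and DESeq2 called 2 lower and 0 higher, where 5.91% of the genes it gave an adjusted p were lower and 5.33% higher. In 12 of the 47 every Day21 library was below every Day0 library, where this held for 22.2% of all genes. With voom and sample quality weights 3 were higher and 16 lower, where 21.1% of all genes were higher and 19.9% lower. Without Day42 replicate 3, edgeR called 5 lower and 0 higher, where 7.24% of all genes were lower and 6.91% higher. The median change was -0.43 for the core and -0.49 for the cap, beside 0.03 for all genes, and 13 of 14 core and 14 of 17 cap genes lay below 0. Without Day0 replicate 2 these medians were -0.21 and -0.23, without Day0 replicate 3 the core was at -0.72, and without Day21 replicate 1 it was at -0.25. The largest differences below 0 were those of PSMB8 and PSMB9, then PSMB4 at -1.58.

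Day42 replicate 3 bears on several of these values. Without it, 27 genes were lower at Day42 than at Day0, among them 13 core and 7 cap genes, where 26.6% of all genes were lower and 15.4% higher, and the core and cap medians were -1.90 and -0.94. Under voom with sample quality weights, which gave that library a weight of 0.0325, 20 genes were lower, 11 of the core and 4 of the cap among them, where 18.7% of all genes were lower and 11.0% higher.

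The profile of levels within the core was compared between libraries. Across the 14 core genes, log2 TPM in a library of one day correlated with that in a library of another day at Pearson's r of 0.883 to 0.983, and libraries of the same day at 0.957 to 0.993; the points share gene length and library, so these values only describe the profiles. The highest core gene exceeded the lowest 41.3-fold ± 1.85 in TPM at Day21 and 17.9-fold ± 4.27 at Day42, against 29.9-fold ± 3.85 at Day0 (SD, n = 3 each). By mean TPM, PSMB6 (2312), PSMB5 (2260) and PSMA7 (1864) led the core at Day0, and PSMA5 (84.0) was lowest. At Day42 PSMA7 (1386), PSMB6 (1022) and PSMB5 (1012) led, and PSMA5 (81.5) and PSMB2 (83.1) were lowest.

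The activators cap the core in place of the ATPase cap. PSME1 and PSME2 form one ring together and are known to respond to interferon, PSME3 acts in the nucleus, and PSME4 is a large single-chain activator. PSME2 had 566, 599 and 319 CPM at Day0, 390.1, 545 and 563 CPM at Day21, and 90.7, 81.7 and 111 CPM at Day42. PSME1 had 148, 145 and 92.5 CPM at Day0, 191, 289 and 277 CPM at Day21, and 59.3, 41.9 and 0.0949 CPM at Day42. PSME2 fell by 2.39 at Day42 against Day0 and by 2.40 against Day21 (log2; edgeR adjusted p = 0.000979 and 0.00134), with no overlap between Day42 and the earlier days. Its partner PSME1 did not pass (-1.93 ± 1.35, SE, edgeR adjusted p = 0.331). Day42 replicate 3 held 8 counts, beside 4628 and 3552 in the other Day42 libraries. In CPM all 3 Day42 libraries were below all Day0 libraries. In TPM PSME1 had 127, 101 and 0.181 at Day42 against 116, 141 and 96.0 at Day0, so only Day42 replicate 3 lay below Day0. PSME3 had 244, 309 and 229.6 CPM at Day0, 148, 91.7 and 158 CPM at Day21, and 220.4, 184 and 113 CPM at Day42. PSME4 had 10.2, 9.57 and 6.61 CPM at Day0, 5.82, 6.96 and 5.30 CPM at Day21, and 31.5, 5.46 and 11.5 CPM at Day42. For PSME3, Day21 lay below Day0 without a call. PSME4 was highest in Day42 replicate 1, and Day42 replicate 3 was also above every earlier library in CPM. In TPM PSME4 had 11.6, 2.24 and 3.90 at Day42, against at most 1.59 in the earlier libraries.

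**Figure D5:**
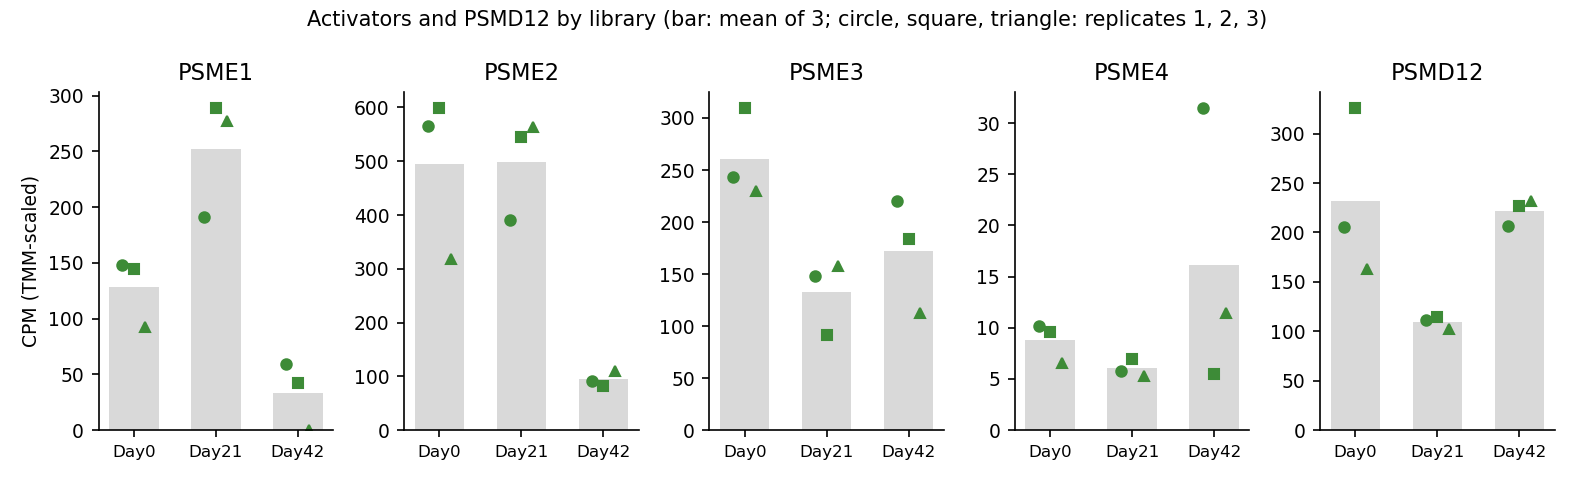
TMM-scaled CPM (y axis) of the 4 activators and of the lid gene PSMD12 in each library by day; bars are means of 3 and circle, square and triangle are replicates 1, 2 and 3. PSME2 lies between 81.7 and 111 CPM at Day42, below all earlier libraries, and PSMD12 is low in all 3 Day21 libraries.

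PSMF1, which codes for a proteasome inhibitor, changed by 0.03 ± 0.28 (SE) at Day42 against Day0 on the TMM scale and was not called. In TPM it had 18.0, 19.1 and 19.8 at Day0 and 43.1, 35.1 and 56.6 at Day42, without overlap. PSMF1 had 134, 114 and 111 CPM at Day0, 83.6, 92.7 and 105 CPM at Day21, and 117, 85.1 and 166 CPM at Day42. The core assembly chaperones PSMG1 to PSMG4, which pair as PSMG1 with PSMG2 and PSMG3 with PSMG4 to build the α ring, gave 0 calls in each comparison (edgeR; 1 of 4 at an unadjusted p under 0.05 for Day42 against Day0 and 0 otherwise). PSMG2 had 51.0, 56.5 and 50.2 CPM at Day0, 44.7, 55.1 and 53.3 CPM at Day21, and 46.9, 41.5 and 37.7 CPM at Day42. PSMG1 had 106, 104 and 77.2 CPM at Day0, 76.1, 90.3 and 106 CPM at Day21, and 10.8, 50 and 64.5 CPM at Day42. PSMG4 had 93.2, 82.8 and 56.0 CPM at Day0, 38.1, 69.0 and 73.6 CPM at Day21, and 50.5, 14.6 and 42.2 CPM at Day42. PSMG3 had 113, 125 and 97.0 CPM at Day0, 91.6, 83.1 and 105 CPM at Day21, and 76.1, 83.3 and 59.9 CPM at Day42. In CPM every Day42 library of all 4 core assembly chaperones was below every Day0 library, and PSMG1 was lowest in Day42 replicate 1. The changes of PSMG2, PSMG1 and PSMG4 were -0.32 ± 0.28, -1.20 ± 0.56 and -1.11 ± 0.50 (SE). In TPM the order turned for PSMG2, with 25.7, 35.5 and 33.6 at Day0 and 64.9, 64.2 and 48.3 at Day42. For PSMG1, PSMG3 and PSMG4 the days overlapped in TPM. PSMD10 had 167, 288 and 208 CPM at Day0, 208, 236 and 215 CPM at Day21, and 334, 206 and 287 CPM at Day42. PSMD9 had 82.7, 87.4 and 50.5 CPM at Day0, 88.3, 122 and 127 CPM at Day21, and 71.5, 48.6 and 26.0 CPM at Day42. Of the cap chaperones, PSMD10 changed by 0.32 ± 0.27 and PSMD9 by -0.59 ± 0.41 (SE) at Day42 against Day0, and neither passed on the TMM scale. In TPM PSMD10 had 97.3, 209 and 161 at Day0 and 533, 368 and 425 at Day42, without overlap. For PSMD9 the days overlapped in TPM. PSMD5 had at most 12 counts in any library, so a change was not detectable at this depth; the locus overlaps CUTALP on the other strand. PSMC3IP, named as a partner of PSMC3, had 73.9, 96.5 and 41.7 CPM at Day0 and 12.1, 16.7 and 0 CPM at Day42, with no call.

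Of 4 proteasome genes under other symbols 3 were called lower. ADRM1, a ubiquitin receptor of the cap, SEM1, a small lid subunit, and POMP, the maturation chaperone of the β ring, fell at Day42 against Day0, with log2 fold changes of -1.498, -2.61 and -2.18 (edgeR adjusted p = 0.00414, 0.00239 and 0.00133); PAAF1 did not pass. Among deubiquitinases, ligases and shuttles that bind the proteasome, the genes called higher at Day42 than at Day0 included UBQLN2, a shuttle for ubiquitinated proteins (1.81 ± 0.31, SE). At Day42 against Day21, USP14, UBQLN2 and ZFAND5 were higher. Among ubiquitin and ubiquitin-activating enzyme genes, those that fell at Day42 against Day0 included RPS27A (-3.68), which codes for ubiquitin fused to a ribosomal protein, and UBB (-1.37), which codes for a chain of ubiquitin units, and the activating enzyme genes UBA1 (1.19) and UBA6 (2.09) rose.

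Of 10 genes around NFE2L1 and NFE2L2, MAFF (5.27) and FBXW7 (2.19) were higher and SYVN1 (-3.86) lower at Day42 against Day0, while NFE2L1 itself, at 2.37, 14.3 and 1.60 CPM at Day42 against 15.8, 13.3 and 19.8 CPM at Day0, did not pass. Of 10 interferon and peptide transport genes 2 were lower, TAP1 and ERAP1, whereas B2M, the light chain of class I molecules, had 548, 495 and 525 CPM at Day42 against 442, 291 and 200.3 CPM at Day0 and did not pass. Of 8 genes of the VCP segregase, which pulls ubiquitinated proteins from complexes, FAF1 was higher. Autophagy genes gave 6 higher and 0 lower of 13, led by OPTN (4.40) and MAP1LC3A (4.36). Among other complexes of fixed composition, the COP9 signalosome, which resembles the lid, had 1 of 9 genes higher and 2 lower, the CCT chaperonin 3 of 8 lower and eIF3 6 of 13 lower, with medians of 0.52, -0.62 and -1.07 beside -1.66 for the core and -0.84 for the cap. These differences between complexes were not tested. The lists stand beside 23.7% of all genes lower and 9.01% higher, on the TMM scale, and were not recomputed on TPM.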

How the data were processed

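RNA sequencing of 9 libraries was analysed, 3 per day, grouped and numbered from the labels. Per the submitters' processing notes, cutadapt 1.9, FastQC and the build GRCh38 were used; no source used here names the aligner, the counter, its use of strand or the gene models. The deposited table holds whole-number counts per gene and library and FPKM, both made by the authors, per the file headers; 0 columns of libraries were left unused. TPM was computed here by rescaling the deposited FPKM to a common sum.

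Counts were fitted over all 9 libraries with edgeR 4.0.16 (filterByExpr with a minimum count of 10, TMM, glmQLFit and glmQLFTest; R 4.3.3), with Benjamini-Hochberg adjustment over 20156 genes and calls at 0.05. The code was run on simulated counts, which varied less between libraries than these and held no length trend. That run does not bear on the calls made here. Alternatives were DESeq2 1.42.0, limma 3.58.1 on log2(FPKM + 1), log2(FPKM + 0.1) and log2(TPM + 1), voom weights, median-of-ratios scaling, library totals without TMM, no filter, a fit of only the days compared, a replicate block, and leaving out each library. The limma fits on FPKM and TPM kept 10619 genes, those with an FPKM of at least 1 in at least 3 libraries. TPM fits, unscaled totals and the length and expression trends (loess, spans 0.5 and, for both together, 0.3) were chosen after seeing the data. Transcript lengths are medians over principal transcripts of the GENCODE basic set (over all basic transcripts where none is marked), matched by identifier. Totals ran from 58526466 to 69658328 counts per library; floors of 12 counts cover counting error only.

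Members and lists were chosen with earlier results of these data known, so no test was run over a list. Any gene of the set could be named; catalytic pairs, the extremes of each part and genes called with a log2 change of at least 1 were to be given by library, and from other lists up to 3 called genes with the largest change. Processed pseudogenes listed apart (21 rows) held 0.161% of the set's counts; no source used here says how reads shared with them were assigned. Some results on the lists of other genes are not reported here.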

Additional observations from a re-analysis of the deposited data

How the results depend on the processing

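The number of proteasome genes called for Day42 against Day0 stayed within 1.5 times 26 in every setting, from 18 to 27, but its direction did not: limma on log2(TPM + 1) gave 11 higher and 8 lower. There PSMA1 (0.082), PSMB7 (0.19), PSMC3 (0.12), PSMC5 (0.41) and PSMD8 (0.056) turned sign against Day0, and PSMA1 (0.077), PSMC3 (0.030), PSMC4 (0.30) and PSMD13 (0.47) against Day21; the change follows from the scale. For Day21 against Day0 the count of 0 became 7 with only these days fitted, 2 with DESeq2, 5 with limma on FPKM under both pseudocounts, 4 on TPM, 1 without TMM and 19 with voom weights; leaving out a library gave 0 to 5. The share of all genes called rose too: 14.4% were higher and 14.5% lower with only these days fitted, 6.68% and 7.4% on log2(FPKM + 1), 6.55% and 6.63% on log2(FPKM + 0.1), 5.86% and 6.39% on TPM, and 2.76% and 2.47% without TMM. For Day42 against Day21, leaving out a library gave 10 to 21 calls.

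Replicate numbers did not pair the libraries: deviations of same-numbered libraries correlated between -0.225 and 0.0266. With the replicate block, 10 genes were called for Day42 against Day21 in place of 16, and 18 in place of 26 against Day0, all lower, where 8.97% and 13.2% of all genes were lower in place of 20% and 23.7%; the median of the set minus that of all genes was 0.37 and -0.011.

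That difference of medians was -0.39, -0.26 and -0.67 for Day21 against Day0, Day42 against Day21 and Day42 against Day0. Leaving out a library moved it to between -0.72 and -0.25, -0.51 and 0.39, and -0.98 and -0.029; for Day42 against Day21 it was positive without Day42 replicate 1 (0.12) and without Day42 replicate 2 (0.39). For Day42 against Day21 it was 0.18 without a filter, 0.17 with DESeq2, 0.15 with voom, -0.0049 on log2(FPKM + 0.1), -0.029 on TPM and -0.0027 after the length trend. For Day42 against Day0 it was -0.35 on log2(FPKM + 0.1), -0.39 on TPM, -0.22 with voom, -0.19 after the length trend and -0.39 after length and expression; the cause was not tested.

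Summed levels on TPM, as log2 ratios, were -0.76 for the core, 0.25 for the cap and -0.45 for the activators at Day42 against Day0, and -0.31, 0.46 and -0.75 against Day21. Leaving out a library gave -0.93 to -0.53 for the core, 0.10 to 0.48 for the cap and -0.66 to -0.19 for the activators against Day0, with the cap at 0.10 without Day0 replicate 3, 0.48 without Day0 replicate 2 and 0.17 without Day42 replicate 1, and the activators at -0.19 without Day42 replicate 3 and -0.25 without Day0 replicate 2. Against Day21 the activators were at -0.49 without Day42 replicate 3. On deposited FPKM they were -1.28, -0.27 and -0.98 against Day0, and -0.83, -0.052 and -1.27 against Day21. On TMM-scaled CPM per kilobase they were -1.99, -0.996 and -1.70 against Day0, and -1.50, -0.72 and -1.94 against Day21. Depth limits PSMB8, PSMB9 and PSMD5 near 0 counts.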
